A study of Rattus norvegicus with 9 samples.

Results

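Glutamate receptor subunits and glutamate transporters were followed in rat embryos of embryonic day 14, in RNA from the ventral part of the spinal cord. The members were all probe sets whose platform annotation gives 1 gene symbol among the AMPA (Gria), kainate (Grik), NMDA (Grin), delta (Grid) and metabotropic (Grm) receptor genes, the vesicular transporters Slc17a6, Slc17a7 and Slc17a8, and the plasma membrane transporters Slc1a1, Slc1a2 and Slc1a6. This rule found 47 of 31042 probe sets, which stand for 29 genes. Every array (9 in all) was hybridised with RNA from a pool of 5 embryos. The groups were 4 pools of embryos positive for a mutant human SOD1 transgene (G93R; the titles add the name Roth), 4 pools positive for a wild-type human SOD1 transgene (Chan in the titles) and 1 negative control pool (SDneg in its title). SOD1 encodes an antioxidant enzyme, and mutant forms of it underlie part of the inherited cases of amyotrophic lateral sclerosis. The description of the negative control also speaks of positive embryos, and the sample was used as the negative control that its title and the same description name. The promoter of the transgenes, the number of founder lines and the sex of the embryos are not given in the sources used here. Mutation, rat line and insertion site go together with the group and cannot be told apart.

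Glutamate is the main fast excitatory transmitter of the spinal cord. Vesicular transporters load it into synaptic vesicles, ionotropic receptors of the AMPA, kainate and NMDA families open cation channels when they bind it, metabotropic receptors signal through G proteins, and plasma membrane transporters take it up again. Motor neurons are known for their sensitivity to excessive glutamate receptor activation, and the GluA2 subunit, coded by Gria2, makes edited AMPA receptors nearly impermeable to calcium. Loss of the astrocytic transporter coded by Slc1a2 is a known feature of adult SOD1 disease models.

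All values below are the linear intensities that the authors deposited. A log2 difference is taken between means of log2(intensity + 8.25), which understates changes of dim probe sets, and comes from limma, with p adjusted by Benjamini-Hochberg across every probe set tested and a threshold of 0.05. A probe set was tested where its mean on that scale lay above the 40th percentile, which corresponds to an intensity of about 17.2. The replicate is the pool, so p-values measure the spread between pools. A probe set has its own hybridisation strength, so that levels were compared between pools and never between probe sets.

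The arrays were alike in median intensity, at 31.0 to 33.9. All 7 neuronal markers (Tubb3, Stmn2, Snap25, Map2, Elavl3, Elavl4 and Nefm) and all 6 motor neuron markers with a probe set lay above the filter, as did Nkx2-2 and Nkx6-1 of the 6 ventral progenitor markers, while Olig1, Olig2, Foxa2 and Shh did not. Of the astrocyte markers only Aqp4 passed, at a mean of 16.0 in mutant and 21.9 in wild-type pools. The 4 microglial markers and the 2 blood markers lay below the filter. Of the sensory ganglion markers 5 of 6 passed. Their summed intensity ran from 3588 to 5332 in mutant pools and from 3184 to 3563 in wild-type pools, with 3622 in the negative control. This sum was mostly Sncg, at 2843 to 4433 in mutant and 2614 to 2927 in wild-type pools. Taken singly, each of the 6 markers overlapped between these groups, and Avil had a lower mean in mutant pools. This list shares Isl1 with the motor neuron list. The motor neuron sum ran from 3139 to 4406 in mutant and from 2851 to 3544 in wild-type pools, and was mostly Prph. It was 2863 in the negative control. Of the 6 motor neuron markers 1 had a lower mean in mutant pools, and each overlapped between mutant and wild-type pools. The 3 ventral interneuron markers (Gata2, Gata3 and Pax2) all passed, had lower means in mutant pools, and summed to 302 to 435 in mutant and 320.3 to 625 in wild-type pools. Of the progenitor and radial glia markers 5 of 6 passed, with sums of 859 to 1446 in mutant and 913 to 1388 in wild-type pools. The part of such cells in the differences below was not tested. In bulk samples fewer cells of a type and less RNA per cell cannot be told apart. Wild-type replicate 2 stood apart from the other arrays. Its 3'/5' ratio of beta-actin, which climbs as RNA degrades, was 19.2. This ratio lay between 6.98 and 7.98 in the mutant pools, between 8.19 and 19.2 in wild-type pools, and at 6.66 for the negative control. Every mutant pool thus had a lower ratio than every wild-type pool (p = 0.0286 by an exact permutation test, two-sided, and no arrangement of 4 against 4 pools gives less). Of the 25 members tested between mutant and wild-type pools, 11 had their highest value of the 9 arrays in wild-type replicate 2 (44.0%), against 19.7% of all tested probe sets. Some results of the members are therefore given with and without this array. The list of other glutamate signalling genes below was fitted only with it.

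Of the 47 member probe sets, 25 passed the filter between mutant and wild-type pools, and they stood for 20 genes. The 22 others, among them every probe set of Grik3, Grin2d, Grin3b, Grm5, Grm7, Grid1, Slc17a7, Slc1a2 and Slc1a6, had values from 0.465 to 29.4 in single pools and means of at most 18.1 over the 9 arrays. Of the 25 tested, 15 had a mean of 50 or more. The filter is a limit of these probes and does not show that a gene was silent.

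**Figure D1:**
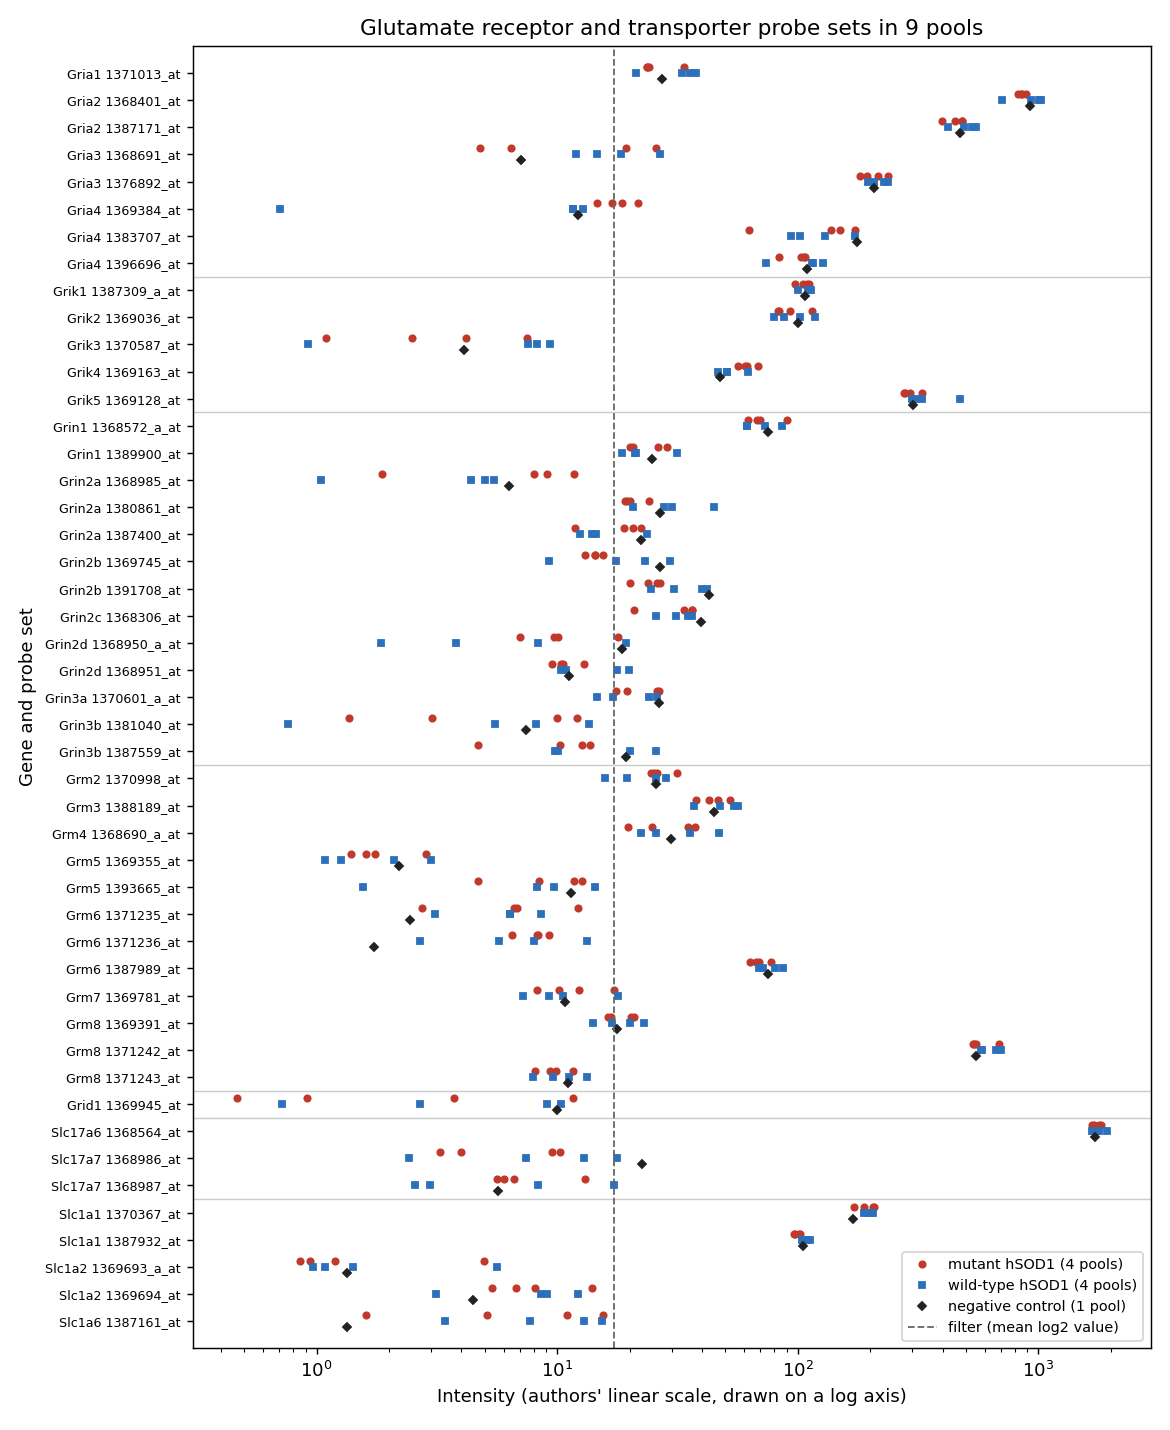
Intensity of each of the 47 member probe sets in every pool (log axis), with mutant pools in red, wild-type pools in blue and the negative control in black, and the filter of about 17.2 as a dashed line. Rows are grouped by receptor or transporter family, positions are to be compared along a row only, and the 3 groups lie on top of each other in most rows above the filter.

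Between mutant and wild-type hSOD1 pools, no glutamate receptor or transporter probe set passed the test. Limma called 0 of the 25 members, against 0.0161% of all 18625 probe sets tested, and 1 member had an unadjusted p under 0.05 (4.00%), against 4.96% of all. The adjusted p of the members lay between 0.928 and 0.997. The log2 differences ran from −0.40 to 0.21 with a median of −0.07, beside a median of 0.01 over all tested probe sets. Values were lower in mutant pools at 18 of the 25 members, or 72.0%, against 46.3% of all. This count and median have no test of their own, and the members share their arrays. Without wild-type replicate 2, 17 of 26 members were lower and the median was −0.03. When the log2 actin ratio entered as covariate, 13 of 25 were lower and the median was −0.01. This ratio separates the mutant from the wild-type pools fully. Here and below, a fit with this covariate therefore cannot tell RNA quality and transgene apart. In the median a member's 95% interval reached 0.32 to either side on the log2 scale. These intervals are not adjusted for the number of probe sets tested, and some were narrower, as for Slc17a6 (−0.17 to 0.12). Differences of −0.40 at Grin2a 1380861_at and −0.38 at Grin2b 1391708_at were not called either. The lack of a call thus does not show equal levels.

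**Figure D2:**
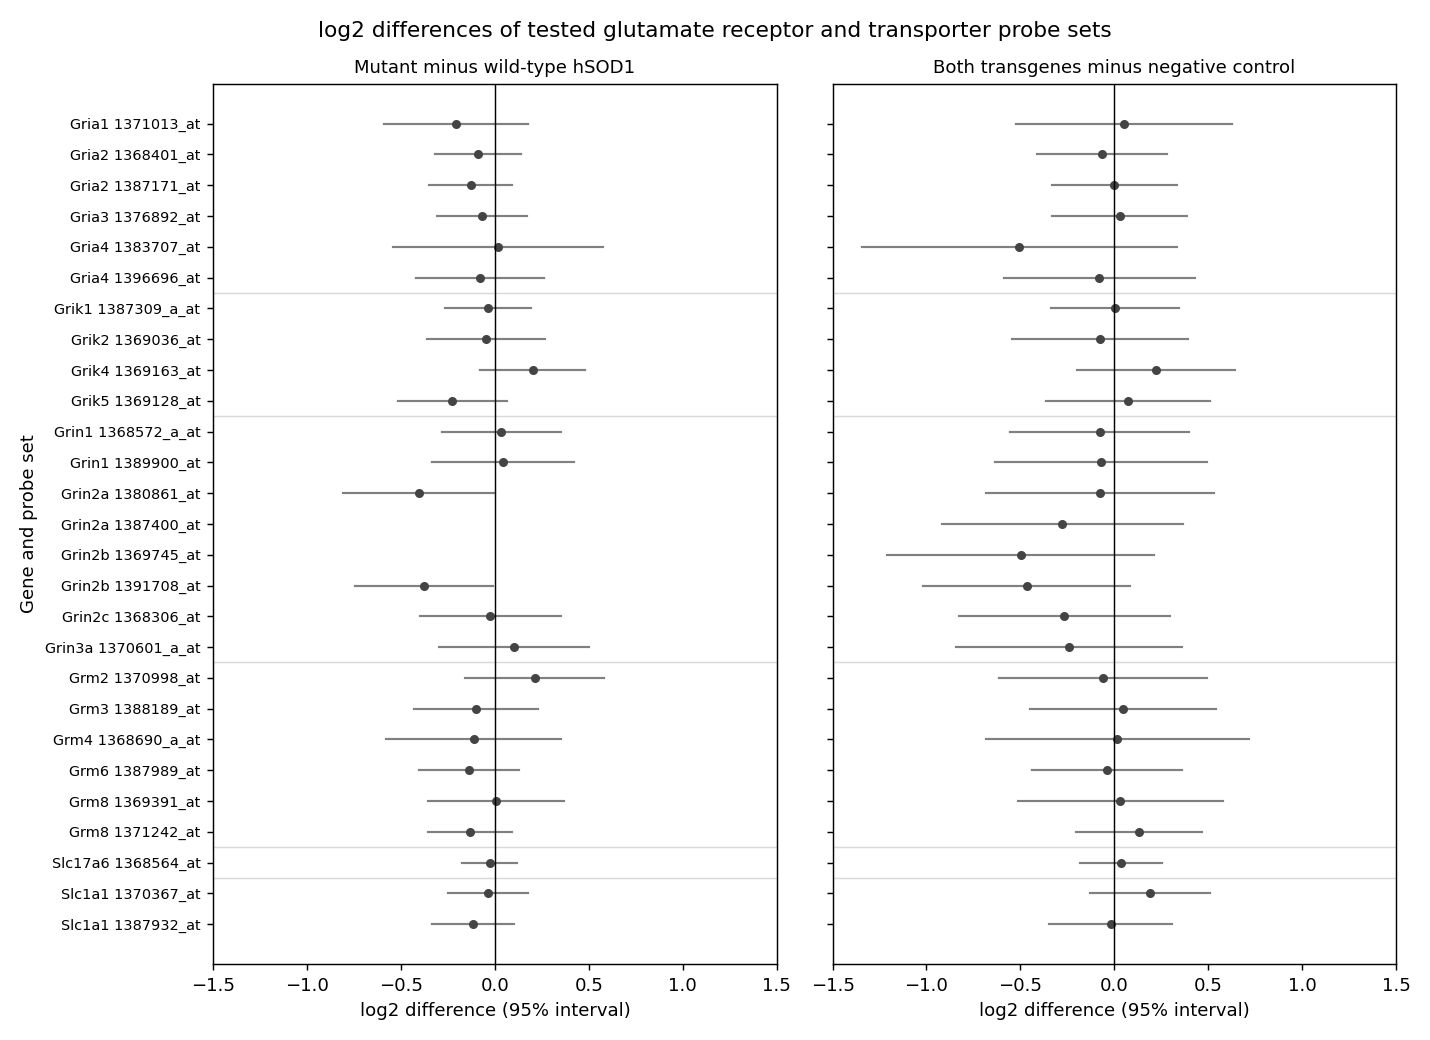
log2 differences of the tested member probe sets (points) with 95% intervals from limma (bars), for mutant minus wild-type pools on the left and for both transgenes minus the negative control on the right. All intervals but that of Grin2b (1391708_at, −0.74 to −0.01) on the left include 0, and those on the right are wider because 1 pool stands for the negative control. Grin2a 1387400_at and Grin2b 1369745_at were tested on the right only.

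Slc17a6, the vesicular transporter of most excitatory neurons of the spinal cord, was the steadiest member by the width of its interval among those described in full. It had 1679.7, 1794, 1827 and 1707 in mutant replicates 1 to 4, against 1932, 1791, 1667 and 1759.8 in wild-type replicates 1 to 4 and 1722 in the negative control. The groups overlapped fully, with the highest and the lowest of these values both in wild-type pools. Mutant minus wild-type came to −0.03 on the log2 scale (SE 0.0677, 95% interval −0.17 to 0.12, limma adjusted p = 0.972). Slc17a7, the vesicular transporter of cortical neurons, lay below the filter on both of its probe sets. Its 1368986_at ranged from 3.26 to 10.3 in mutant pools and from 2.42 to 17.7 in wild-type pools, and it had its highest value, 22.6, in the negative control.

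The start regions of these 2 vesicular transporter genes are shown because their products do the same step in different excitatory neurons. They are the RefSeq sequences of build GRCr8 from 250 bases before to 50 bases after the annotated start, on the plus strand, at chr1:110348197-110348496 for Slc17a6 and chr1:104785955-104786254 for Slc17a7. Capitals mark CG dinucleotides.
Slc17a6: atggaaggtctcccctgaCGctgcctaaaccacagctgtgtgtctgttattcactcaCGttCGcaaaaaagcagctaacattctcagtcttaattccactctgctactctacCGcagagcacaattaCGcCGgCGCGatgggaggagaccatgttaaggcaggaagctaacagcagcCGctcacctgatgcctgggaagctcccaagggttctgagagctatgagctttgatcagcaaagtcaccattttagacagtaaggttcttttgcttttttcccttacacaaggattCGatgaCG
Slc17a7: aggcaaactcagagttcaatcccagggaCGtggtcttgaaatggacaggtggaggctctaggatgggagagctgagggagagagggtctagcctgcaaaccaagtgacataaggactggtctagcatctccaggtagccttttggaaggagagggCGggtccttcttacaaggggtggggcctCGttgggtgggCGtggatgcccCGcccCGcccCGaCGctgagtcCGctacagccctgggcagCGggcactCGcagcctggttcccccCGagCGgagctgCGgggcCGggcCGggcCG
The Slc17a6 region held 11 CG dinucleotides at 49.0% GC, and the Slc17a7 region 17 at 64.7% GC, while the median of all 33469 start regions of the same length was 7 at 51.7% GC. A CG is present in 94.5% of all of them. The motif GGGCGG, read on both strands, occurs in the Slc17a7 region and not in the Slc17a6 region, and in 33.1% of all start regions. Of the 18 member genes with a start region in that table, 7 held GGGCGG. The motif TATAAA, on both strands, was in 0 of the 18 and in 14.2% of all. A match is a description of the letters in this window.

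Of the plasma membrane transporters, Slc1a1 codes for the uptake carrier of neurons, Slc1a2 for the main carrier of astrocytes and Slc1a6 for that of cerebellar Purkinje cells. Slc1a2 (1369694_at) had 8.09, 6.74, 13.9 and 5.36 in mutant replicates 1 to 4, against 8.59, 3.13, 9.11 and 12.2 in wild-type replicates 1 to 4 and 4.45 in the negative control. All these values lay below the filter, as did those of its other probe set, and Slc1a6 ranged from 1.61 to 15.5 in the transgenic pools. Slc1a1 had 205, 188, 207 and 171 on 1370367_at in mutant replicates 1 to 4, against 200.3, 198, 189 and 205 in wild-type replicates and 170.2 in the negative control. The groups overlapped on this probe set. On the second, 1387932_at, the mutant pools had 102, 96.9, 97.5 and 101, against 104, 112, 107 and 109 in wild-type pools, the negative control being at 105. This was the 1 tested member whose groups did not overlap (4.00%, against 2.96% of all tested probe sets), and it is named here because of that, after its values were seen. Its log2 difference was −0.11 (95% interval −0.33 to 0.10, limma adjusted p = 0.935), and that of 1370367_at was −0.04.

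Among the AMPA receptor subunits, all 4 genes had a tested probe set, and 5 of 6 probe sets were lower in mutant pools, with a family median of −0.09 on the log2 scale and 0 calls. With the actin covariate 3 of 6 were lower and the family median was −0.03. Gria2 (1368401_at) had 857, 848, 892 and 826 in mutant replicates 1 to 4, against 935, 1028, 710.0 and 1009 in wild-type replicates 1 to 4 and 925 in the negative control. The mutant pools lay within the range of the wild-type pools, which was wider, with an SD of 27.2 in mutant and 146 in wild-type pools (n = 4 each). The log2 difference was −0.09 (SE 0.107, 95% interval −0.32 to 0.14, limma adjusted p = 0.950), and the second Gria2 probe set gave −0.13. With the actin covariate the Gria2 difference was 0.01, and without wild-type replicate 3 it was −0.21.

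Gria3 and Gria4 code for the subunits that pair with GluA2 in many spinal neurons. Gria3 (1376892_at) averaged 208 ± 24.5 in mutant and 218 ± 18.9 in wild-type pools (SD, n = 4 each), with a log2 difference of −0.07. The 3 Gria4 probe sets did not go together. On 1383707_at Gria4 had 173, 150.1, 137 and 62.7 in mutant replicates 1 to 4, against 103, 130.2, 173 and 93.7 in wild-type replicates and 177 in the negative control, a log2 difference of 0.02 between mutant and wild-type pools. Mutant replicate 4 was the lowest pool there. On 1396696_at the difference was −0.08. The third, 1369384_at, lay below the filter with 18.7, 21.7, 14.7 and 16.9 in mutant pools, against 11.6, 0.704, 11.6 and 12.8 in wild-type pools. It was the 1 untested member of 22 whose groups did not overlap, beside 2.96% of all tested probe sets. The share over all probe sets below the filter was not computed. Without the filter its log2 difference was 0.66 (limma adjusted p = 0.922), with wild-type replicate 2 near the floor at 0.704. Gria1 (1371013_at) averaged 26.3 ± 4.98 in mutant pools and 31.9 ± 7.36 in wild-type pools, with a log2 difference of −0.21 (95% interval −0.59 to 0.18).

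Of the kainate receptor genes, Grik1, Grik2, Grik4 and Grik5 were tested and Grik3 was below the filter. Grik5, which codes for an auxiliary kainate subunit that needs a partner to form a channel, had 277, 293, 278 and 330.1 in mutant replicates 1 to 4, against 309, 471, 298 and 327 in wild-type replicates 1 to 4 and 303 in the negative control. Wild-type replicate 2 was far above the other pools, and the remaining groups overlapped. The log2 difference was −0.23 (SE 0.134, 95% interval −0.52 to 0.06, limma adjusted p = 0.928). It was −0.08 without wild-type replicate 2 and 0.03 with the actin covariate.

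Grik4 codes for the other auxiliary kainate subunit and differed in the opposite direction. It had 61.7, 68.3, 56.3 and 60.6 in mutant replicates, against 50.9, 46.7, 51.0 and 62.2 in wild-type replicates and 47.6 in the negative control. Wild-type replicate 4 reached into the mutant range, and the log2 difference was 0.20 (SE 0.129, 95% interval −0.08 to 0.48, limma adjusted p = 0.928). Grik1 and Grik2 code for subunits that form channels by themselves. Grik1 averaged 106 ± 6.21 in mutant and 109 ± 5.60 in wild-type pools (SD, n = 4 each), differing by −0.04 in log2 units. Grik2 averaged 93.5 ± 15.1 in mutant and 97.0 ± 16.6 in wild-type pools, differing by −0.05.

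The NMDA receptor genes held the members with the smallest p. Grin1, the subunit that every NMDA receptor needs, had 62.2, 70.0, 68.0 and 90.0 on 1368572_a_at in mutant replicates, against 61.6, 61.4, 73.2 and 86.3 in wild-type replicates and 75.4 in the negative control. Replicate 4 was the highest pool of both transgenic groups, and the log2 difference of 0.03 (95% interval −0.28 to 0.35, limma adjusted p = 0.979) changed sign when single pools were left out. On 1389900_at Grin1 had 26.4, 20.6, 20.1 and 28.7 in mutant replicates, against 21.2, 31.5, 21.2 and 18.7 in wild-type replicates, with a log2 difference of 0.04.

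Grin2b, the NMDA subunit that predominates before birth, had 26.8, 20.1, 23.9 and 25.9 on 1391708_at in mutant replicates 1 to 4, against 30.5, 41.8, 40.1 and 24.6 in wild-type replicates 1 to 4 and 42.6 in the negative control. The wild-type replicate 4 lay within the mutant range and the other 3 wild-type pools above it. The log2 difference was −0.38 (SE 0.171, 95% interval −0.74 to −0.01, limma unadjusted p = 0.0461 and adjusted p = 0.928). The second Grin2b probe set, 1369745_at, below the filter here, had 13.0, 15.5, 14.3 and 14.4 in mutant pools, against 23.3, 29.4, 17.6 and 9.22 in wild-type pools. Both probe sets thus put 3 wild-type pools above every mutant pool, and wild-type replicate 4 low.

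Grin2a codes for the NMDA subunit that rises after birth. Its 1380861_at had 19.2, 20.1, 19.6 and 24.0 in mutant replicates 1 to 4, against 20.7, 45.0, 27.8 and 29.9 in wild-type replicates 1 to 4 and 26.7 in the negative control. Wild-type replicate 2 was the highest pool, and the log2 difference was −0.40 (SE 0.187, 95% interval −0.81 to 0.00, limma adjusted p = 0.928). The other 2 Grin2a probe sets, both under the filter, differed the other way, by 0.14 on 1387400_at and 0.36 on 1368985_at. Among the 25 tested members, Grin2a and Grin2b had the lowest differences in this comparison. Leaving out single wild-type pools, 1 to 4 in turn, gave −0.53, −0.24, −0.43 and −0.40 for Grin2a (1380861_at) and −0.41, −0.29, −0.31 and −0.49 for Grin2b (1391708_at), and no limma adjusted p among these was below 0.506. Grin2a was thus nearest to 0 without wild-type replicate 2, while Grin2b was almost as near to 0 without replicate 3. With the actin covariate the differences were −0.14 and −0.24, and on the 6 arrays tagged le2 in their titles (an unexplained tag) they were −0.51 and −0.45. The part of RNA quality in these values was not tested further.

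**Figure D3:**
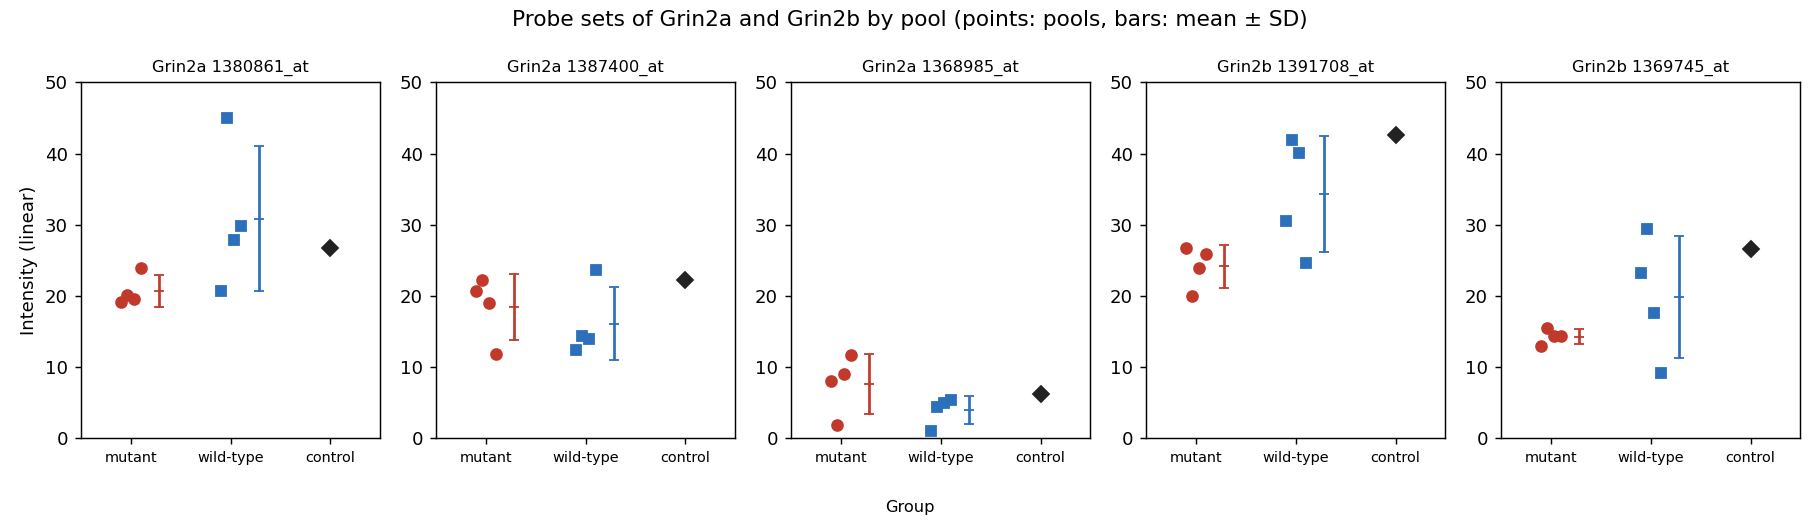
Intensity (linear, from 0) of the 3 Grin2a and 2 Grin2b probe sets in every pool, with the mean ± SD of the 4 mutant and 4 wild-type pools beside the points. Mutant pools lie mostly below wild-type pools on Grin2a 1380861_at and on both Grin2b probe sets, and mostly above them on the other 2 Grin2a probe sets.

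The remaining NMDA genes code for subunits that modify the receptor. Grin3a, a glycine-binding subunit, had 26.0, 19.5, 17.5 and 26.5 in mutant replicates, against 14.6, 24.2, 17.1 and 26.0 in wild-type replicates and 26.4 in the negative control, a log2 difference of 0.10. The groups overlapped fully. Grin2c averaged 31.8 ± 7.40 in mutant and 32.1 ± 4.78 in wild-type pools (log2 difference −0.02), while Grin2d and Grin3b stayed below the filter. Over the family, 3 of the 6 tested probe sets were lower in mutant pools, with a median of 0.01, and the sign of this median depended on the setting.

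Metabotropic receptor genes were tested for Grm2, Grm3, Grm4, Grm6 and Grm8, while Grm5 and Grm7 stayed below the filter. Grm8, an inhibitory receptor of nerve endings, had 535, 687, 539 and 551 on 1371242_at in mutant replicates, against 576, 703, 583 and 671 in wild-type replicates and 549.7 in the negative control. Replicate 2 was the highest pool in both transgenic groups, and the log2 difference was −0.13 (SE 0.104, 95% interval −0.36 to 0.09, limma adjusted p = 0.928). The other 2 Grm8 probe sets lay near the filter or below it, with values from 7.96 to 23.0 in the transgenic pools, and differed by 0.01 and −0.05. Grm2, also an inhibitory receptor, had 25.2, 31.6, 24.7 and 26.0 in mutant replicates, against 19.5, 28.3, 15.8 and 25.8 in wild-type replicates and 25.7 in the negative control. At 0.21 in log2 units, its difference was the highest among the 25 tested members (SE 0.172, 95% interval −0.16 to 0.58, limma adjusted p = 0.928), and wild-type replicates 2 and 4 lay in the mutant range. Grm3, Grm4 and Grm6 (1387989_at) differed by −0.10, −0.11 and −0.14. Grid1, the delta receptor gene, ranged from 0.465 to 11.6 in mutant and from 0.717 to 10.4 in wild-type pools.

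Of the 14 member genes with several probe sets, 7 had all of them on 1 side of 0 between mutant and wild-type pools when the filter was dropped, and 7 had them on both sides. Where several probe sets of a gene passed the filter, they lay on 1 side for 3 of 5 genes (Gria2, Grin1 and Slc1a1) and on both sides for Gria4 and Grm8.

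Against the negative control, no member passed the test either. This comparison asks what goes with carrying human SOD1, mutant or not, and its spread comes from the transgenic pools because the control is 1 pool. Limma called 0 of 27 members in each of 3 contrasts with the control (both transgenes, mutant hSOD1, wild-type hSOD1), against 0.0% of all 18625 probe sets. In that order 0, 1 and 0 members had an unadjusted p under 0.05, against 3.12%, 2.29% and 4.28% of all. The adjusted p was 1.00 for every member with both transgenes, and the log2 differences ran from −0.51 to 0.22 with a median of −0.04, beside −0.02 over all. Over the 25 members tested in both fits the median was −0.02, and the other 2 passed the filter only with the control included. Lower with a transgene were 16 of 27 members, or 59.3%, against 53.5% of all, and 14 of the 25 tested in both fits. For mutant hSOD1 alone it was 21 of 27 (52.2% of all), and 19 of the 25 tested in both fits. For wild-type hSOD1 alone it was 12 of 27 (54.3% of all), and 10 of those 25. The control lay above all 8 transgenic pools at 3 members (11.1%, against 10.5% of all) and below them at 1 (3.70%, against 9.19%).

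NMDA receptor probe sets lay below the control with both transgenes pooled, at 6 of 6 tested in both fits, which stand for 5 genes. The share of all tested probe sets that lay lower was 53.5%, and these 6 all share the 1 control pool. In the same contrast 4 of 6 AMPA, 1 of 4 kainate, 2 of 6 metabotropic and 1 of 2 plasma membrane transporter probe sets were lower. For the vesicular transporters it was 0 of 1. The NMDA family is set out here because of its count, after the values were seen. With the 60th percentile as filter, 1 NMDA probe set was tested. The median log2 difference of the 6 NMDA probe sets was −0.16. With wild-type hSOD1 alone 5 of these 6 were lower, since Grin2a 1380861_at differed by 0.13 there. Grin2a 1387400_at and Grin2b 1369745_at passed the filter only in the fit that includes the control, where both were high, so they were left out of these counts. With the actin covariate Grin1 1368572_a_at, 1 of the 6, differed by 0.01 from the control. On the le2 arrays with the control 6 of 7 NMDA probe sets were lower, again with the control in the filter. The control lacks this tag, so tag and transgene cannot be told apart in that fit. Grin2b (1391708_at) averaged 29.2 ± 7.84 in the 8 transgenic pools (SD) and was 42.6 in the negative control, above every transgenic pool, a gap of −0.47 in log2 units (SE 0.255, 95% interval −1.02 to 0.08, limma adjusted p = 1.00). On 1369745_at Grin2b averaged 17.1 ± 6.39 with a transgene, against 26.6 in the negative control, with wild-type replicate 2 higher at 29.4. Against the control, the mutant pools differed on 1391708_at by −0.65 (limma unadjusted p = 0.0297, adjusted p = 1.00) and the wild-type pools by −0.28. These 2 values share the control pool. Grin2c, which averaged 31.9 ± 5.77 with a transgene and was 39.6 in the control, was the third member with the control above all 8 pools besides Grin2b and Gria4.

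Gria4 (1383707_at) averaged 128 ± 39.2 in the transgenic pools, against 177 in the negative control, or −0.51 in log2 units (95% interval −1.34 to 0.33). Its other tested probe set differed by −0.08, so that the probe sets of this gene disagreed in size. On the higher side, Slc1a1 (1370367_at) averaged 196 ± 12.0 with a transgene, against 170.2 in the negative control, which lay below all 8 pools (log2 difference 0.19, 95% interval −0.13 to 0.51), while its second probe set differed by −0.02. Grik4 averaged 57.2 ± 7.26 with a transgene, against 47.6 in the control (0.22, 95% interval −0.20 to 0.64), and wild-type replicate 2 was the 1 transgenic pool below the control. Grm8 (1371242_at) averaged 606 ± 70.0, against 549.7 (0.13). Gria2, Grin1 and Slc17a6 differed by −0.07, −0.08 and 0.04.

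Other genes of glutamate signalling were taken from a list of 60 that holds receptor auxiliary subunits, scaffolds, RNA-editing enzymes and enzymes and carriers of glutamate metabolism. Of these, 53 had a probe set and 43 passed the filter, and limma called 0 in any of the 4 comparisons, higher or lower. Between mutant and wild-type pools 27 were lower and 16 higher, with a median of −0.03, and 2 had an unadjusted p under 0.05 (background 4.96%). Against the control the counts at that level were 1 for mutant hSOD1, 2 for wild-type hSOD1 and 0 for both transgenes. Slc1a3, the glutamate carrier of radial glia and astrocytes, had the smallest p. It had 79.7, 85.4, 78.6 and 89.8 on 1371130_at in mutant replicates, against 103, 120, 121 and 102 in wild-type replicates and 103 in the negative control. The groups did not overlap, as at 2.96% of all tested probe sets. Slc1a3 was named for its small p, which goes with separated groups, and the overlap was not counted over the 43 genes. Its log2 difference was −0.38 (SE 0.113, limma adjusted p = 0.928). Its 1368565_at averaged 69.8 ± 27.6 in mutant and 58.9 ± 5.26 in wild-type pools, the other way round. The higher mutant mean there rested on mutant replicate 3, at 110. Mutant replicates 1, 2 and 4 had 49.0, 59.7 and 60.1, against 51.2 to 62.8 in wild-type pools.

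Shisa9, which codes for an auxiliary AMPA receptor subunit, had 13.3, 16.9, 14.5 and 15.0 in mutant replicates, against 19.5, 24.9, 29.7 and 23.2 in wild-type replicates and 23.5 in the negative control. Its groups did not overlap either, and it too was named for its small p (log2 difference −0.48, limma adjusted p = 0.928). Most of these values are near the filter. Nsf, an ATPase of membrane fusion that binds GluA2, averaged 546 ± 77.6 in mutant and 458 ± 72.8 in wild-type pools, with 649 in the negative control. Against the negative control the smallest p values belonged to Dlg1, a synaptic scaffold, Nsf and the aspartate aminotransferase gene Got1. Dlg1 averaged 162 ± 23.0 in the transgenic pools, against 214 in the control, and Got1 139 ± 34.2, against 85.4, each with limma adjusted p = 1.00. With mutant hSOD1 alone, Got1, Shisa9 and the AMPA auxiliary subunit gene Cacng2 came first, at log2 differences of 0.78, −0.46 and −0.31 from the control. With wild-type hSOD1 alone it was Dlg1, Nsf and the reelin receptor gene Lrp8, at −0.51, −0.51 and −0.36.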

How the data were processed

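Gene expression was measured on 9 Affymetrix rat arrays in 4 mutant hSOD1, 4 wild-type hSOD1 and 1 negative control pool, grouped by GEO's labels. The deposited table holds 1 linear intensity per probe set and array, as the authors made it, with software that no source used here names. Trimmed by 2% at each end, the array means were equal, so the values were taken as already scaled and were not normalized again. The number of arrays limits the precision. Tests left out the Affymetrix controls. The annotation lists 20826 of the other 31042 probe sets with 1 gene symbol, 436 with several and 9780 with none. All 47 members matched the RefSeq gene table by Entrez identifier, with 0 symbols changed.

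Intensities were tested as log2(intensity + 8.25), the pseudocount being the 25th percentile of all values, using limma 3.58.1 (R 4.3.3), its eBayes step allowing for an intensity trend. Mutant and wild-type pools were fitted on their 8 arrays, and comparisons with the control on all 9. The fit was tested on simulated data. A gene's probe set is the one with the highest mean. Values in every pool are given for Gria2, Grin1, Slc17a6 and Slc1a2, for the 4 member probe sets per direction with the smallest p between mutant and wild-type pools and the 3 per direction against the negative control, and for other probe sets where the text says so. Of the list of other genes, the 3 with the smallest p in each comparison are named. The members, lists and tests were chosen with earlier results of these data known. Alternatives changed the normalization, pseudocount, filter, variance trend, covariates and arrays used.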

Additional observations from a re-analysis of the deposited data

Results flagged for a closer look

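Of 50 groups of 4 pools examined among the tested members, 3 held 1 pool far from the other 3 by Dixon's criterion (the gap set against the group's range), and chance flags about 1 in 20 groups. Gria1 (1371013_at) was 33.8 in mutant replicate 4 and 23.6 to 24.2 in the other mutant pools. Grm8 (1371242_at) was 687 in mutant replicate 2 and 535 to 551 in the other mutant pools. Grik5 was 471 in wild-type replicate 2 and 298 to 327 in the other wild-type pools.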

How the results depend on the processing

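Members called by limma stayed at 0 under each of the 19 alternatives between mutant and wild-type pools and the 17 for each comparison with the control. Leaving out single pools put the number of members lower in mutant than in wild-type pools between 17 and 20, and lower with a transgene than in the control between 14 and 19. Without the filter 29 and 25 of 47 were lower in these comparisons, against 47.5% and 52.1% of all probe sets. With the 60th percentile as filter 12 of 14 were lower in mutant than in wild-type pools, against 46.8% of all. With that filter 8 of 14 were lower with a transgene, against 52.0% of all. With the actin covariate the median against the control was −0.12, and the cause was not tested. Where a filter was used, the counts and medians against the control given here include the control in that filter.

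Some small log2 differences changed sign. On the le2 arrays mutant minus wild-type was 0.0304 for Slc17a6, −0.0607 for Grin3a and −0.0198 for Grin1 1389900_at. With the actin covariate it was 0.0118 for Gria2, 0.0270 for Grik5 and −0.0873 for Grin1 1368572_a_at, which was 0.0130 against the control. Leaving out single pools gave −0.0601 to 0.0105 for Slc17a6, −0.00327 to 0.192 for Grin3a, −0.0631 to 0.125 for Grin1 1368572_a_at and −0.0261 to 0.163 for Grin1 1389900_at.

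The transgenic groups share replicate numbers. Same-numbered pools deviated together with correlations of 0.12, 0.09, −0.07 and 0.20. For mutant replicates 1 and 4 this was the highest correlation with any wild-type pool, and for replicates 2 and 3 it was not. The numbers were not taken as pairs in the main fit, and whether they are pairs was not settled. With the replicate block limma called 0 members. Each block holds 1 mutant and 1 wild-type pool, so it cannot change a log2 difference, the count of lower members or their median. It changes p only. An unadjusted limma p under 0.05 was reached by 0 of 25 members and 6.51% of all with the block, against 4.96% of all without it.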
